A study of Mus musculus with 15 samples.

Results

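The cell cycle and mitosis genes described here are 43 genes whose products copy the genome, enforce the order of the cycle and divide the cell. They were taken as a list of symbols and mapped to the Entrez identifiers of the count files. All 43 were matched among 27179 counted identifiers, and all 43 were among the 12712 genes that passed the filter on low counts. The RNA of 4T1, a mammary carcinoma line of the mouse with the genotype given as WT, was sequenced in 15 libraries from 5 populations, each with 3 biological replicates. The parental population was the untransfected line. The populations E1, E2, A and M were each grown from a single cell of the parental population after transfection with the plasmid pNLS-iRFP670, which encodes a near-infrared fluorescent protein sent to the nucleus. Each of these 4 populations is therefore 1 clone, and an effect of the plasmid or of drug selection cannot be told apart from an effect of the cell that was picked. G418 was in the medium of the clones while they were maintained and was absent from the culture that gave the RNA. The RNA of all 5 populations was taken after 72 h, at about 80% confluency. The labels call the replicates biological but do not say whether they were separate cultures, so the p-values measure only the spread between these samples.

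The cell cycle is driven by cyclins bound to cyclin-dependent kinases. Before S phase, E2F transcription factors switch on genes for the helicase, the polymerase clamp and the enzymes that make deoxynucleotides. In G2 and mitosis, a later set of genes is switched on with the help of FOXM1 and of complexes that bind the cell cycle genes homology region, a short promoter element known as the CHR. The products of that later set attach chromosomes to the spindle, time the separation of sister chromatids and divide the cell. In tumours such as mammary carcinoma, the protein of Mki67 is stained as a marker of cycling cells. The 43 genes were split by known function into 15 genes of G1 and S phase (Ccne1, Ccne2, Mcm2 to Mcm7, Pcna, Rrm1, Rrm2, Tyms, E2f1, E2f8 and Chek1) and 28 genes of G2 and mitosis, called G1/S and G2/M genes below.

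The libraries held 20143111 to 36831801 counts. The most abundant identifier that had no symbol in the gene tables held 36.8% to 49.3% of the counts, and the 6 most abundant genes took 61.4% to 72.1%. The 43 genes together had 33531 to 126726 counts in a library. All 8 epithelial markers had counts in every population, with a summed level of 350 to 863 CPM, the field's usual count scaled to library size (here the size after TMM scaling in edgeR). The 8 leukocyte markers summed to at most 0.631 CPM and the 6 endothelial markers to at most 0.425 CPM. The 7 fibroblast markers summed to 21.1 to 33.8 CPM in A and 3.15 to 12.1 CPM in the other populations. Of these markers, Dcn, Lum and Thy1 were at 0 in all 15 libraries.

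Promoters were examined because genes of these 2 sets are known to be switched on through different promoter elements. The RefSeq promoter table (build GRCm38.p6) held 39 windows of 300 bases for 36 of the 43 genes, each running from 250 bases before a start to 50 after it. A CHR, written TTTGAA or TTCGAA on either strand, was present in 76.0% of the 25 G2/M windows, in 21.4% of the 14 G1/S windows and in 19.2% of all 32851 windows in the table. An E2F site, written TTTCGCGC, TTTGGCGC, TTTCCCGC or TTTGCCGC on either strand, was present in 28.6% of the G1/S windows, 4.0% of the G2/M windows and 2.26% of all windows. A CCAAT box was found on either strand in 76.0%, 71.4% and 37.4% of the G2/M, G1/S and all windows. CCAAT and the CHR stood together in 68.0% of the G2/M windows, 21.4% of the G1/S windows and 7.52% of all windows. Overlapping matches were counted separately. A match describes these letters and says nothing of whether a factor binds there.

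**Figure D1:**
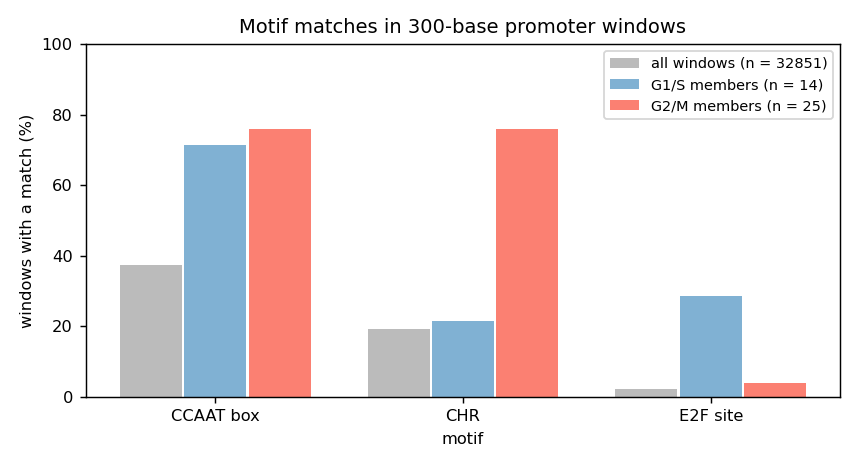
Share of promoter windows of 300 bases with at least 1 match to a motif (vertical axis, percent), for all 32851 windows, the 14 windows of G1/S genes and the 25 windows of G2/M genes. The CHR was present in 76.0% of the G2/M windows and 21.4% of the G1/S windows, and the E2F site in 4.0% and 28.6%.

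The bases before the start are shown for 6 genes that were called in at least 1 comparison, 3 of G2/M and 3 of G1/S, to show how the motifs lie. Capitals mark matches to any of the 3 motifs on either strand (a CCAAT box on the opposite strand reads ATTGG, and a CHR reads TTCAAA or TTCGAA). Positions are those of the leftmost base of the match, counted so that -1 is the base just before the start. Cdc20 (chr4:118437344-118437593, minus strand) had CCAAT at -53 and -8 and a CHR at -18 between them. Ube2c (chr2:164769679-164769928, plus strand) had 6 CCAAT matches between -228 and -57 and a CHR at -29. Cdk1 (chr10:69352913-69353162, minus strand) had CHR matches at -71 and -15 and an E2F site at -131. Mcm6 (chr1:128359706-128359955, minus strand) had E2F matches at -110, -106 and -47 and no CHR in its window. Of the 2 windows of Mcm7, the one shown (chr5:138171884-138172133, minus strand) had an E2F site at -165, a CHR at -173 and CCAAT at -72 and -26. The other window of Mcm7 had CCAAT at -47 and no CHR or E2F match. E2f8 (chr7:48881597-48881846, minus strand) had CCAAT at -112 and a CHR at -20. The starts used for E2f8 and Mcm7 lie inside the annotated genes. The bases shown for E2f8, and most of those shown for Mcm7, are therefore within the gene.
Cdc20: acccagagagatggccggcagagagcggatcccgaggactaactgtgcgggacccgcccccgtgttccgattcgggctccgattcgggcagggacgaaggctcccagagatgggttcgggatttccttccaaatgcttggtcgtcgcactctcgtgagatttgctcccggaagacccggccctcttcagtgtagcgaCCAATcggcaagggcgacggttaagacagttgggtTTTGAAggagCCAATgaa
Ube2c: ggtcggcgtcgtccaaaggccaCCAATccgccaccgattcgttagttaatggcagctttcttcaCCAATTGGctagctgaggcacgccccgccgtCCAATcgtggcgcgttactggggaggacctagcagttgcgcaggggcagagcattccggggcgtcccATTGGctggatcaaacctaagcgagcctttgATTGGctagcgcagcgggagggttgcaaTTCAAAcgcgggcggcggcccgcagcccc
Cdk1: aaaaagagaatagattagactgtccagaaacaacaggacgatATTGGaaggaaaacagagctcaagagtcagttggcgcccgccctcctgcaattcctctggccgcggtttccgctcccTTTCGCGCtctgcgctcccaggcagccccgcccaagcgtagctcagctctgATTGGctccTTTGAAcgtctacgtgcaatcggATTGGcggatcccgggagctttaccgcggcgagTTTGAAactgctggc
Mcm6: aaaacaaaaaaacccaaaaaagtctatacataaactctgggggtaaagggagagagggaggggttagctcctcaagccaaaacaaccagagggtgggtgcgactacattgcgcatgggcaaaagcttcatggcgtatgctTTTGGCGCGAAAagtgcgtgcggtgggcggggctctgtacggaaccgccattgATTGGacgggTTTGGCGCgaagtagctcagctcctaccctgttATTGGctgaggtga
Mcm7: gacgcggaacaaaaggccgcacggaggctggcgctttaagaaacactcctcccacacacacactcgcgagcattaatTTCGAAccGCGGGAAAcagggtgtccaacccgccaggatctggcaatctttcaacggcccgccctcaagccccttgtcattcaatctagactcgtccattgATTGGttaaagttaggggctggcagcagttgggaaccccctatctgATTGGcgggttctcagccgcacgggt
E2f8: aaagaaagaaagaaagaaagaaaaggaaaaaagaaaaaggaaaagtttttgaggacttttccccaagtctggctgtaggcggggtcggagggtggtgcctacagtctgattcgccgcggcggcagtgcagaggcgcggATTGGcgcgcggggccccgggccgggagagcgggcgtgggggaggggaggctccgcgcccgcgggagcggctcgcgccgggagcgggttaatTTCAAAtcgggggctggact

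Across the 5 populations, 19 of the 43 genes (44.2%) were called for any difference, beside 40.9% of all genes tested, a share near the background. A call means an adjusted p under 0.05 in edgeR's quasi-likelihood test with Benjamini-Hochberg adjustment over all genes within a comparison. The count was 37 without M replicate 2, 29 without M replicate 1, and 12 without A replicate 1 or without A replicate 2. The direction of the differences is given by phase. For each library, the median deviation of the genes from their mean over the 15 libraries was taken on the log2 CPM scale. For the 28 G2/M genes this median was 0.25, 0.59 and 0.64 in the 3 E1 libraries and 0.40, 0.46 and 0.50 in the E2 libraries. It was -0.16, -0.21 and -0.09 in A, and -0.55, -0.36 and -0.01 in the parental population. The E1 and E2 libraries all lay above the A and parental libraries. For the 15 G1/S genes the order was another: the medians of A were 0.32, 0.31 and 0.20, those of the parental population -0.16, -0.32 and -0.31, and those of E1 lay between them at 0.01, 0.10 and 0.13. The E2 medians, 0.40, 0.08 and 0.15, overlapped those of A and E1, and E2 replicate 1 was the highest of all 15 libraries. M was split between its replicates, with G2/M medians of -1.17, 0.58 and -0.58, and is described separately. Since these are bulk libraries, a larger share of cells in a phase and more RNA per cell in that phase cannot be told apart.

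**Figure D2:**
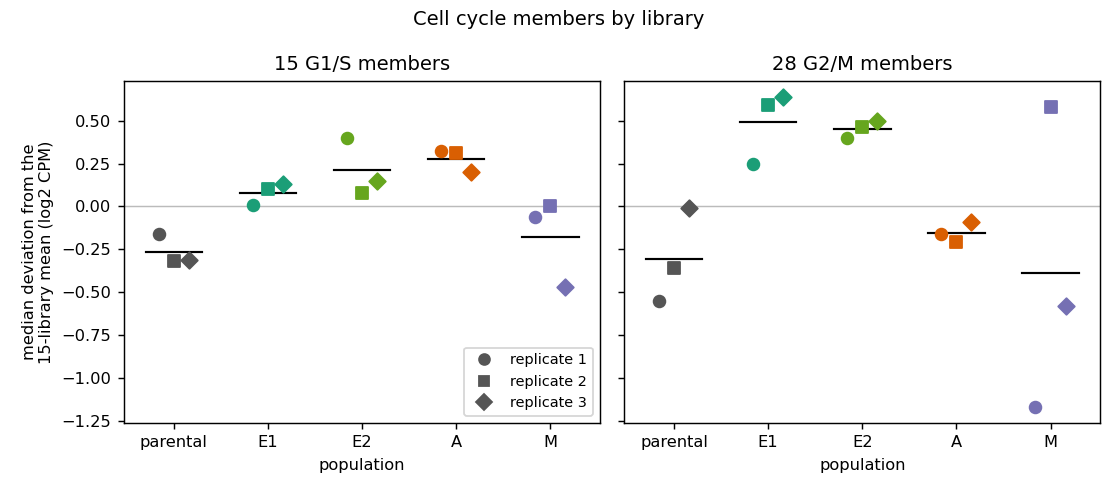
Median deviation of the 15 G1/S genes (left) and the 28 G2/M genes (right) from their mean over 15 libraries, on the log2 CPM scale, with 1 point per library and a horizontal line at the mean of each population. E1 and E2 lie above A and parental for G2/M genes, A lies above parental and E1 for G1/S genes with E2 overlapping it, and the M libraries spread from -1.17 to 0.58 for G2/M genes.

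Levels of different genes are comparable only per length, and were divided by the exon length of the gene. In the parental population they ran from 0.354 CPM per kb for Ccne1 to 30.6 for Anln, with Top2a at 29.3 and Pcna at 26.9. Ccne1 and Ccne2, the cyclins E of the G1/S transition, were the least abundant of the 43 in every population, between 0.354 and 0.924 CPM per kb. Top2a, which untangles DNA ahead of mitosis, reached 52.3 and 55.6 CPM per kb in E1 and E2.

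In E1, 10 of the 43 genes were called higher than in the parental population and the others were not called, beside 7.77% of all genes called higher and 7.35% lower. The median log2 fold change of the 43 was 0.69, against -0.01 over all genes, and 40 of the 43 were above 0. The 10 were Bub1, Melk, Cdc20, Ccna2, Cdk1, Nuf2, Ect2 and Racgap1 of the G2/M genes and Rrm1 and Rrm2 of the G1/S genes. Leaving out parental replicate 1, E1 replicate 2 or E1 replicate 3 brought the count to 5 in each case. In E2, 14 genes were called higher than in the parental population, beside 9.14% of all genes called higher and 8.8% lower, with a median of 0.59 against 0.01 over all genes. Of these, 8 were G2/M genes (Bub1, Melk, Ccna2, Cdk1, Cdc20, Birc5, Ect2 and Racgap1) and 6 were G1/S genes (Rrm1, Rrm2, Tyms, E2f1, E2f8 and Mcm6). The count fell whichever library of the pair was left out. It was 8 without parental replicate 1, and 9 without parental replicate 2 or without E2 replicate 3. Without parental replicate 3, E2 replicate 1 or E2 replicate 2 it was 10. All 28 G2/M genes had a fold change above 0 in both clones, with medians of 0.75 in E1 and 0.73 in E2. These 2 comparisons share the parental libraries. The epithelial markers were higher in the same comparisons, 6 of 8 in E1 and 5 of 8 in E2, with sums of 559 to 729 CPM against 350 to 397 in the parental libraries, and their part in these results was not tested. Compared directly, E2 and E1 had 0 of 43 genes called by edgeR's quasi-likelihood test, 0 at an unadjusted p under 0.05 and 0 called by DESeq2, beside 0.173% and 0.0629% of all genes called higher and lower in E2. The fold changes between E2 and E1 lay between -0.51 (Aurka) and 0.44 (Tyms).

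In A, 10 genes were called higher than in the parental population, which is 23.3% of the 43 beside 15.1% of all genes called higher and 14.9% lower. Their makeup was mostly G1/S: Rrm2, E2f1, E2f8, Mcm4, Mcm6, Mcm7 and Pcna, or 7 of 15, against Ccna2, Bub1 and Melk, or 3 of 28 G2/M genes. The median was 0.59 for the G1/S genes and 0.09 for the G2/M genes, against 0.03 for all genes, and the difference between these medians was not tested. Of the 8 epithelial markers, 5 were higher and 1 lower in A. The count fell to 6 without parental replicate 3 or without A replicate 2. In M, 3 genes were called higher than in the parental population, Rrm2, E2f8 and Melk, and the median of the 43 was 0.07. The 3 are 6.98% of the 43, near the 7.87% of all genes called higher, with 6.28% of all genes called lower. Of the 8 epithelial markers, 6 were higher and 1 lower in M.

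**Figure D3:**
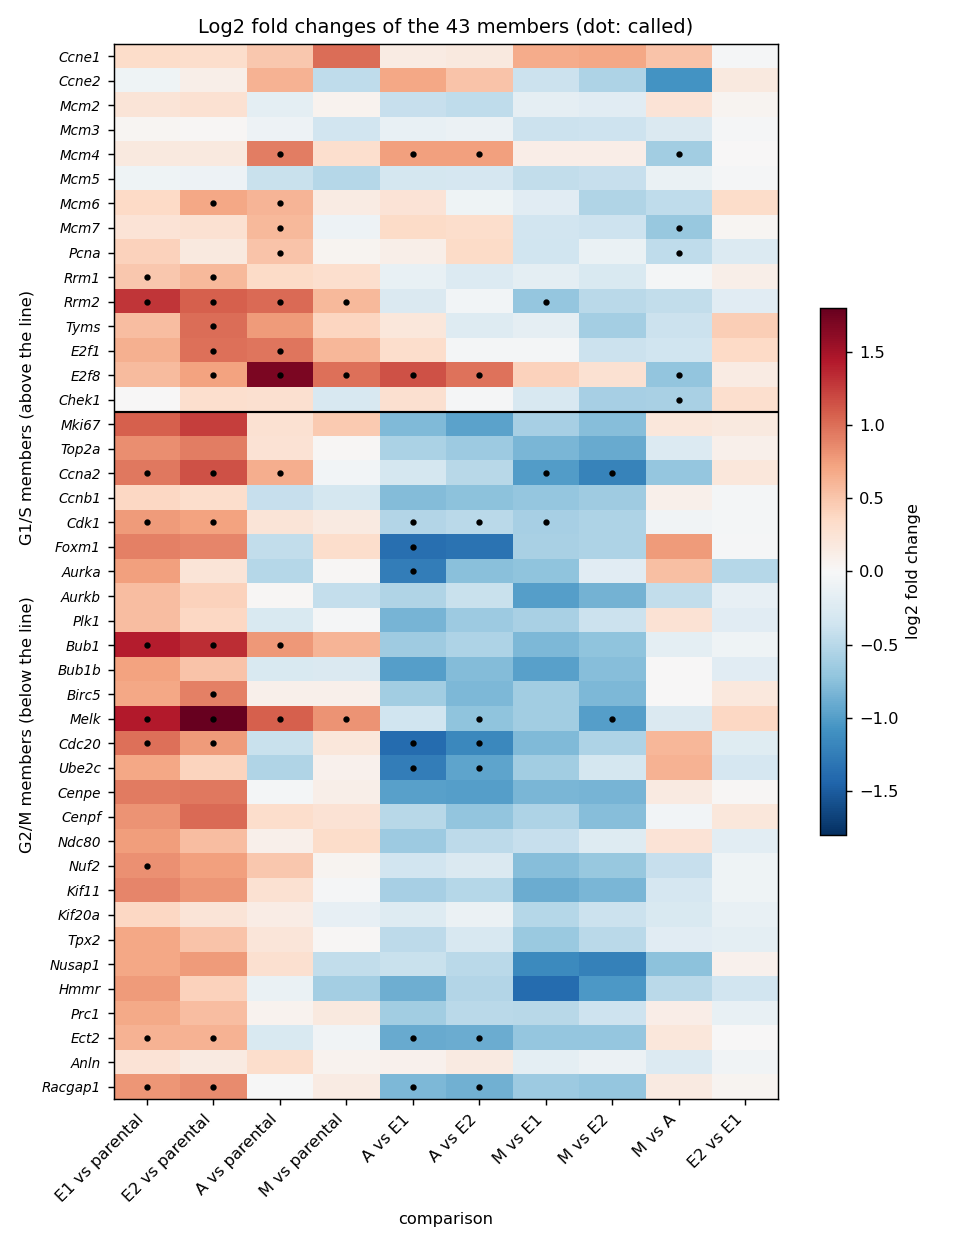
Log2 fold changes of the 43 genes (rows, G1/S above the line and G2/M below) in the 10 pairs of populations (columns), red where the population named before "vs" is higher, with a dot where the gene was called. Bub1 and Melk are dark red in E1 and E2 against parental, E2f8 reaches 1.70 in A against parental, and the G2/M rows are mostly blue in A against E1 and E2.

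Nearly all G2/M genes had lower means in A than in E1 and E2, while the G1/S genes showed no common direction. Against E1, 7 G2/M genes were called lower in A (Cdk1, Foxm1, Aurka, Cdc20, Ube2c, Ect2 and Racgap1) and 2 G1/S genes higher (Mcm4 and E2f8), beside 14.6% of all genes called lower and 15% higher. Against E2, 6 G2/M genes were called lower (Cdk1, Melk, Cdc20, Ube2c, Ect2 and Racgap1) and the same 2 G1/S genes higher, beside 11% lower and 11.4% higher. The count against E2 was 5 lower and higher together without A replicate 2. The shares of the 43 called, 16.3% lower and 4.65% higher against E1, are near or below those of all genes. The medians were -0.47 and -0.48 for the 43 genes against 0.02 and 0.00 for all genes. For the 28 G2/M genes they were -0.63 against E1 and -0.65 against E2, and 27 of the 28 were below 0 in each comparison. For the 15 G1/S genes they were 0.21 against E1, with 10 above 0, and -0.03 against E2, with 6 above 0, and 13.3% of them were called higher in each comparison. In 23 of the 28, all 3 A libraries lay below all 3 E1 libraries, beside 23.4% of all genes, and in 23 of 28 below all 3 E2 libraries, beside 18.9% of all genes.

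The fit takes 1 spread per gene from all 15 libraries, and the M libraries differed widely from each other in the G2/M genes. The counts were therefore also taken in a fit without the 3 M libraries, chosen after seeing the data. In it, 26 genes were called higher in E1 than in the parental population (beside 8.92% of all 12529 genes tested there higher and 8.13% lower) and 25 in E2 (beside 10.5% and 9.71%). A had 20 genes lower than E1 (beside 15.8% of all genes lower and 15.9% higher) and 20 lower than E2 (beside 12.3% in each direction), all of them G2/M genes, and the same 2 genes, Mcm4 and E2f8, higher in each. Against the parental population, A had 10 genes higher and 2 lower, Foxm1 and Ube2c (beside 16.3% of all genes higher and 15.8% lower). Between E2 and E1 this edgeR fit called 0 of the 43 as well, beside 0.295% of all genes higher and 0.0798% lower. The fold changes were nearly the same in both fits, 1.07 for Mki67 in E1 against parental in each, while its adjusted p in edgeR's quasi-likelihood test was 0.196 with the M libraries and 0.000154 without them.

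The transcription factors of the group comprised E2f1, an activator of the G1/S genes, E2f8, an E2F factor that represses them, and Foxm1, an activator of the G2/M genes. E2f8 (Entrez 108961, chr7:48866429-48882073) stood at 10.1, 9.68 and 10.5 CPM in the parental libraries, 13.0, 14.5 and 17.3 in E1, 18.2, 12.8 and 18.9 in E2, 36.0, 31.3 and 31.6 in A, and 16.1, 26.8 and 17.1 in M. All 3 A libraries lay above the other 12, and the parental libraries lay below the other 12. The mean was 33.0 ± 2.62 CPM in A and 10.1 ± 0.402 in the parental population (SD, n = 3). Its log2 fold change in A was 1.70 against parental with a standard error (SE, from the spread of log2 CPM in both populations) of 0.0727 and an adjusted p of 4.3e-07. Against E1 it was 1.14 (adjusted p = 8.04e-05), and against E2 0.98 (adjusted p = 0.000626). M also had more E2f8 than the parental population, by 0.99 (adjusted p = 0.00121), and less than A, by -0.71 (adjusted p = 0.0115, up to 0.072 when A replicate 1, M replicate 1 or M replicate 3 was left out). In E2 the rise was 0.72 (adjusted p = 0.0136, and 0.0909 at the highest, without E2 replicate 3). E2f8 shares 610 exon bases with a noncoding gene on the opposite strand, whose reads cannot be told apart where counting ignored strand.

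E2f1 (Entrez 13555, chr2:154559400-154569892) was at 16.9, 8.88 and 6.99 CPM in the parental libraries, 16.7, 19.9 and 14.2 in E1, 25.6, 18 and 21.6 in E2, 21.2, 22.1 and 20.3 in A, and 20.9, 15 and 13.6 in M. Every E2 and A library was above every parental library, while E1 and M overlapped it through parental replicate 1. The gene was called higher than parental in E2 (0.99 ± 0.406 SE, adjusted p = 0.00598) and in A (0.96 ± 0.381 SE, adjusted p = 0.00377), and both calls held under every alternative run. Foxm1 (Entrez 14235, chr6:128362994-128375886) was at 27.3, 20.5 and 26.2 CPM in the parental libraries, 36.4, 48.2 and 53.3 in E1, 44.1, 46.9 and 44.9 in E2, 19.5, 16.4 and 18.1 in A, and 15.6, 61 and 14.9 in M. The A libraries were all below the parental, E1 and E2 libraries, and M held both the lowest values and the highest. Foxm1 shares 144 and 97 exon bases with the protein-coding genes Tex52 and Gm44596 on the same strand. Foxm1 fell by 1.35 on the log2 scale in A against E1 (adjusted p = 0.0396, up to 0.112 when any of the 6 libraries was left out). Against E2 the change was -1.33 with an adjusted p of 0.0527. Without the 3 M libraries these adjusted p-values were 7.08e-07 and 1.59e-06. In A, E2f1 and E2f8 were thus above the parental libraries, and Foxm1 was below the parental, E1 and E2 libraries. E2f8 was also above the E2 libraries, but E2f1 was not, with means of 21.2 CPM in A and 21.7 in E2. In the fit with all 15 libraries, Foxm1 was called only in A against E1.

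Among the cyclins and their kinase, Ccna2, the cyclin A that serves S phase and the entry into mitosis, had the smallest p for any difference (adjusted p = 0.000978). Ccna2 (Entrez 12428, chr3:36564865-36573038) was at 33.4, 48.3 and 49.6 CPM in the parental libraries, 74.6, 99.4 and 81.0 in E1, 84.7, 105 and 102 in E2, 62.5, 64.8 and 78.6 in A, and 24.1, 61.3 and 41.1 in M. All E1, E2 and A libraries were above the parental ones, and all M libraries were below those of E1, E2 and A. It was higher than parental in E2 by 1.15 (adjusted p = 0.00267) and in E1 by 0.95 (adjusted p = 0.0113, up to 0.0596 without parental replicate 1 or E1 replicate 2). The rise of 0.65 in A had an adjusted p of 0.048, which passed 0.05 when any of the 6 libraries was left out, up to 0.224. M was lower than E2 by -1.20 (adjusted p = 0.0075) and lower than E1 by -1.01 (adjusted p = 0.0231, up to 0.166 without E1 replicate 2, E1 replicate 3 or M replicate 3). Ccna2 shares 510 exon bases with Exosc9 on the opposite strand.

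Cdk1, the kinase that cyclins A and B activate for mitosis, had 25.9 ± 3.86 CPM in the parental population, 43.9 ± 3.14 in E1 and 42.7 ± 1.36 in E2, with 30.3 ± 4.48 in A and 28.8 ± 7.29 in M (SD, n = 3). It rose by 0.76 in E1 (adjusted p = 0.00335) and 0.72 in E2 (adjusted p = 0.00432) against parental. Against E1 it was lower in A by -0.53 (adjusted p = 0.0192) and in M by -0.60 (adjusted p = 0.0455), and against E2 lower in A by -0.49 (adjusted p = 0.0379). Each of these 3 lower calls was lost without at least 4 of the 6 libraries in turn, with adjusted p up to 0.103, 0.216 and 0.172. Ccnb1, the mitotic cyclin B, ranged from 7.89 to 42.4 CPM and was not called in any pair, and both extremes were M libraries. Reads of Ccnb1 may be shared with its counted pseudogene Ccnb1-ps. Ccne1 (Entrez 12447, chr7:38097984-38107490) was at 0.696, 0.995 and 1.13 CPM in the parental libraries, 1.51, 0.697 and 1.39 in E1, 0.416, 0.908 and 2.19 in E2, 1.03, 1.66 and 1.35 in A, and 2.20, 2.74 and 0.939 in M. Its libraries overlapped in every pair of populations, and differences were not detectable at this depth, with 8 to 112 counts in a library. Ccne2 (Entrez 12448, chr4:11190433-11204779) was at 2.74, 1.11 and 2.39 CPM in the parental libraries, 1.79, 1.86 and 2.24 in E1, 1.87, 2.48 and 2.31 in E2, 4.32, 2.48 and 2.89 in A, and 1.72, 1.62 and 1.13 in M. All A libraries were above all M libraries, with a log2 fold change of -1.08 in M against A and an adjusted p of 0.0558. Ccne2 shares 609 exon bases with Ints8 on the opposite strand.

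The replicative helicase Mcm2 to Mcm7 unwinds DNA as a ring of 6 proteins, and Pcna is the clamp that holds the polymerase on it. The subunits were not all called in the same comparisons, and differences between subunits were not tested. By library, all 6 were above their mean over the 15 libraries in E2 replicate 1 and below it in M replicate 3. Mcm4 (Entrez 17217, chr16:15623897-15637400) was at 50.9, 27.1 and 28.9 CPM in the parental libraries, 41.0, 38.9 and 40.7 in E1, 46.5, 37.6 and 37.0 in E2, 68.5, 73.9 and 59.8 in A, and 46.4, 54.0 and 30.6 in M. The A libraries were above the other 12. Mcm4 was higher in A than in the parental population by 0.92 (adjusted p = 0.00139), than in E1 by 0.74 (adjusted p = 0.00773) and than in E2 by 0.74 (adjusted p = 0.0108, and 0.0518 without A replicate 2). M was lower than A by -0.62 (adjusted p = 0.0357, up to 0.202 when A replicate 1, A replicate 2, M replicate 1 or M replicate 3 was left out). Against parental, A also had more Mcm6 (0.61, adjusted p = 0.0321), more Mcm7 (0.59, adjusted p = 0.0123) and more Pcna (0.51, adjusted p = 0.0103). For Mcm6 the call did not hold without parental replicate 2 or 3 or A replicate 1 or 2 (adjusted p up to 0.139), the Mcm7 call without parental replicate 3 or A replicate 2 (up to 0.0653), and the Pcna call without parental replicate 3 (0.0576). Mcm6 was also higher than parental in E2 (0.69, adjusted p = 0.0261, up to 0.128 without parental replicate 2 or 3 or E2 replicate 1).

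Mcm2, Mcm3 and Mcm5, the other subunits of the ring, were not called in any of the 10 pairs. Their means in A were 21.0 ± 3.92, 39.3 ± 2.25 and 47.9 ± 5.16 CPM, against 23.9 ± 6.57, 41.9 ± 14.4 and 63.1 ± 15.3 in the parental population (SD, n = 3). For Mcm5 the parental population had the highest mean of the populations, while for Mcm4 it had the lowest and A the highest. Compared with A, M had less Mcm7 (-0.68, adjusted p = 0.00793, and 0.052 without M replicate 3) and less Pcna (-0.46, adjusted p = 0.0307). The Pcna call was lost when any A library, M replicate 2 or M replicate 3 was left out (adjusted p up to 0.138). Chek1, the kinase of the S phase checkpoint, was at 28.6, 35.8 and 39.2 CPM in the parental libraries, 28.7, 31.9 and 42.9 in E1, 49.9, 37.5 and 40.7 in E2, 43.2, 39.8 and 43.4 in A, and 33.7, 32.9 and 17.9 in M. Its values overlapped in most pairs, but every M library was below every A library. The change in M against A was -0.58 (adjusted p = 0.0428, up to 0.279 when any A library or M replicate 3 was left out). Mcm7 shares 321 and 64 exon bases with Ap4m1 and Cops6 on the opposite strand.

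The enzymes of deoxynucleotide synthesis were Rrm1 and Rrm2, the large and small subunit of ribonucleotide reductase, and Tyms, which makes thymidylate. Rrm2 (Entrez 20135, chr12:24708254-24714146) was at 17.9, 13.2 and 16.8 CPM in the parental libraries, 33.5, 42.7 and 40.5 in E1, 32.7, 33.9 and 34.1 in E2, 29.4, 31.8 and 36.1 in A, and 21.7, 31.1 and 18.8 in M. All 12 clone libraries were above all 3 parental libraries. It was higher than parental in E1 by 1.28 (adjusted p = 2.53e-05), in E2 by 1.07 (adjusted p = 0.000144), in A by 1.02 (adjusted p = 9.11e-05) and in M by 0.58 (adjusted p = 0.0293). The call in M was lost without parental replicate 2 or 3 or M replicate 2 (adjusted p up to 0.235), and the other 3 held under every alternative. M had less Rrm2 than E1 (-0.70, adjusted p = 0.023, up to 0.18 without E1 replicate 2 or 3 or M replicate 1 or 3). Rrm1 had 133 ± 18.9 CPM in the parental population, 186 ± 22.7 in E1 and 200 ± 30.6 in E2 (SD, n = 3). It rose by 0.49 in E1 (adjusted p = 0.0286, up to 0.163 without parental replicate 1 or 3 or E1 replicate 2 or 3) and by 0.59 in E2 (adjusted p = 0.00728, and 0.0555 without parental replicate 1). Tyms was at 5.80, 4.13 and 6.11 CPM in the parental libraries and 11.6, 10.3 and 10.5 in E2, a rise of 1.00 (adjusted p = 0.0307, up to 0.115 when any of the 6 libraries was left out). Reads of Tyms may be shared with its counted pseudogene Tyms-ps.

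**Figure D4:**
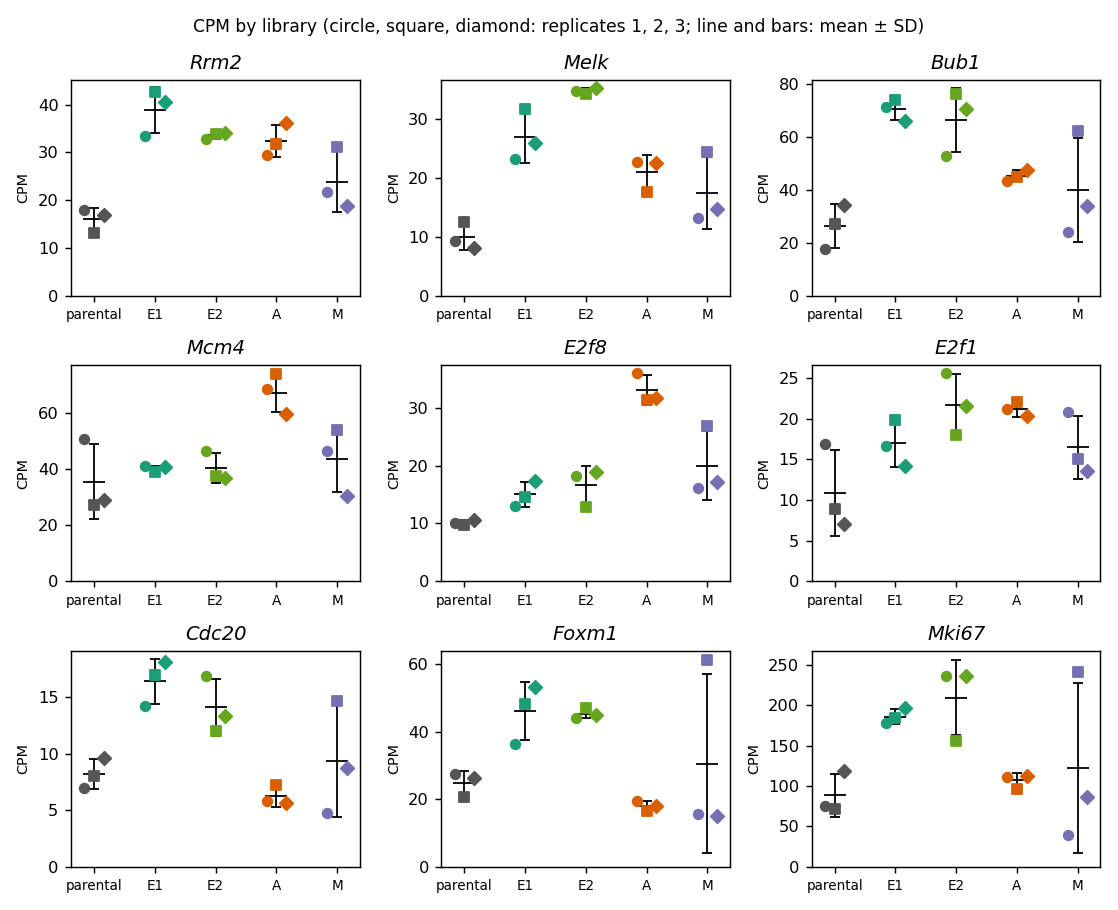
CPM of 9 of the genes in each of the 15 libraries (circle, square and diamond for replicates 1, 2 and 3), with the mean and SD of each population of 3. Rrm2 and Melk are above the parental libraries in all 12 clone libraries, Mcm4 and E2f8 are highest in A, and Cdc20 and Foxm1 are low in A and split among the M libraries.

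The kinases of mitosis include Bub1 and Bub1b of the spindle checkpoint, the Aurora kinases Aurka and Aurkb, Plk1, and Melk, a kinase whose transcript follows the cycle. Birc5 is survivin, a subunit of the chromosomal passenger complex with Aurkb. Melk (Entrez 17279, chr4:44300909-44364675) was at 9.29, 12.4 and 8.12 CPM in the parental libraries, 23.1, 31.6 and 25.8 in E1, 34.6, 34.1 and 35.2 in E2, 22.7, 17.5 and 22.4 in A, and 13.2, 24.3 and 14.7 in M. As with Rrm2, all 12 clone libraries were above the parental ones, and E2 was above all others. Melk was higher than parental in E2 by 1.8 (adjusted p = 1.4e-06), in E1 by 1.43 (adjusted p = 4.23e-05), in A by 1.07 (adjusted p = 0.000308) and in M by 0.81 (adjusted p = 0.00917, up to 0.117 without parental replicate 3 or M replicate 2). It was lower than in E2 in A (-0.73, adjusted p = 0.0106, and 0.0675 without A replicate 2) and in M (-0.99, adjusted p = 0.00566, and 0.052 without M replicate 3).

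Bub1 (Entrez 12235, chr2:127800197-127831859) was at 17.7, 27.0 and 34.3 CPM in the parental libraries, 71.4, 73.9 and 66 in E1, 52.7, 76.1 and 70.4 in E2, 43.5, 44.7 and 47.6 in A, and 24.2, 62.2 and 33.9 in M. E1, E2 and A were above parental in every library, and M overlapped it. The rise was 1.41 in E1 (adjusted p = 0.00258) and 1.33 in E2 (adjusted p = 0.00328). In A it was 0.78 (adjusted p = 0.0419, up to 0.193 when parental replicate 1 or 2 or any A library was left out). Aurka had 21.4 ± 5.07 CPM in E1 and 8.94 ± 0.725 in A (SD, n = 3), with every A library below every E1 library. Its change of -1.25 in A against E1 had an adjusted p of 0.00644. Birc5 was at 10.2, 9.72 and 9.76 CPM in the parental libraries and 20.5, 17.7 and 17.2 in E2, a rise of 0.90 (adjusted p = 0.0406, up to 0.115 when any of the 6 libraries was left out). Bub1b, Aurkb and Plk1 were not called in any pair, with ranges over the 15 libraries of 7.98 to 57.8, 2.23 to 14.9 and 1.76 to 16.8 CPM.

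Cdc20 activates the anaphase-promoting complex, and Ube2c is the enzyme that delivers ubiquitin to it. Cdc20 (Entrez 107995, chr4:118432901-118437343) was at 6.96, 8.04 and 9.64 CPM in the parental libraries, 14.2, 17.0 and 18.1 in E1, 16.9, 12 and 13.3 in E2, 5.81, 7.27 and 5.60 in A, and 4.80, 14.7 and 8.74 in M. The E1 and E2 libraries were all above those of the parental population and of A. Cdc20 fell by 1.39 on the log2 scale in A against E1 (adjusted p = 0.000295) and by 1.16 against E2 (adjusted p = 0.00245), and both calls held under every alternative. Against parental it rose by 0.99 in E1 (adjusted p = 0.0129, up to 0.0596 without parental replicate 1 or E1 replicate 3) and by 0.77 in E2 (adjusted p = 0.048, up to 0.163 when any of the 6 libraries was left out). Ube2c was at 19.0, 25.5 and 25 CPM in E1, 19.7, 18.9 and 17.7 in E2 and 10.4, 8.90 and 9.81 in A, so that every A library was below every E1 and E2 library. The change in A was -1.25 against E1 (adjusted p = 0.00844) and -0.95 against E2 (adjusted p = 0.0487, up to 0.139 when any of the 6 libraries was left out). Both promoters, printed above, hold CCAAT and a CHR. Cdc20 shares 53 exon bases with Elovl1 and Ube2c 592 with Tnnc2, both on the opposite strand.

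At the kinetochore, Ndc80 and Nuf2 belong to the complex that grips microtubules, Cenpe is a motor and Cenpf a large coat protein. Nuf2 (Entrez 66977, chr1:169497934-169531464) was at 9.29, 12.1 and 14.5 CPM in the parental libraries, 15.7, 22.4 and 25.5 in E1, 17.6, 23.4 and 19.1 in E2, 17.1, 16.4 and 16.7 in A, and 7.27, 19.6 and 10.3 in M. E1, E2 and A lay above parental and M overlapped it. The call in E1 (0.82, adjusted p = 0.0376) did not hold without parental replicate 1 or 2 or E1 replicate 2 or 3 (adjusted p up to 0.162). Cenpe, Cenpf and Ndc80 were not called in any pair, with ranges of 19.0 to 109, 33.2 to 169 and 10.7 to 40.1 CPM, and M replicate 1 was the lowest library for each. The 6 spindle motors and microtubule binders, Kif11, Kif20a, Tpx2, Nusap1, Hmmr and Prc1, were not called in any pair either. Kif11 ranged from 34.8 to 161 CPM over the 15 libraries, Kif20a from 6.26 to 24.8, Nusap1 from 5.38 to 51.5, Hmmr from 4.27 to 42.1 and Prc1 from 39.7 to 103. Kif20a, Nusap1 and Prc1 share 1271, 172 and 911 exon bases with Cdc23, Oip5 and Rccd1 on the opposite strand. Tpx2, which activates Aurora A on the spindle, had the smallest p of the 6 for any difference (adjusted p = 0.103). Tpx2 (Entrez 72119, chr2:152847964-152895321) was at 33.1, 37.7 and 50.7 CPM in the parental libraries, 57.4, 71.0 and 67.2 in E1, 51.4, 63.5 and 58.3 in E2, 37.1, 41.9 and 62.6 in A, and 24.9, 59.8 and 38.1 in M. The E1 and E2 libraries were above the parental ones, and A and M overlapped all others. Against parental, the median log2 fold change of the 6 was 0.69 for E1 and 0.53 for E2, with 0.18 for A and -0.09 for M.

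Cytokinesis was represented by Ect2 and Racgap1, which activate and position RhoA at the division plane, and Anln, the scaffold of the contractile ring. Ect2 (Entrez 13605, chr3:27097222-27154253) was at 98.2, 113 and 164 CPM in the parental libraries, 160, 209 and 210 in E1, 157, 221 and 200 in E2, 108, 104 and 97.4 in A, and 87.6, 162 and 108 in M. A was below E1 and E2 in every library, while parental replicate 3 reached the lowest E1 and E2 libraries. Ect2 was lower in A than in E1 (-0.91 ± 0.137 SE, adjusted p = 0.00161) and than in E2 (-0.90 ± 0.154 SE, adjusted p = 0.00239). The rises over parental in E1 (0.63, adjusted p = 0.0387) and E2 (0.62, adjusted p = 0.0355) had overlapping libraries. Both were lost without parental replicate 1 or 2 or replicate 2 or 3 of the clone, with adjusted p up to 0.185 and 0.172. Racgap1 had 34.3 ± 5.00 CPM in the parental population, 59.8 ± 8.29 in E1 and 62.0 ± 0.419 in E2, with 34.1 ± 0.970 in A and 37.9 ± 18.9 in M (SD, n = 3). Racgap1 was lower in A than in E1 (-0.81, adjusted p = 0.00975) and E2 (-0.86, adjusted p = 0.00869), and higher than parental in E2 (0.85, adjusted p = 0.0123, and 0.0702 without parental replicate 1). In E1 it rose by 0.80 (adjusted p = 0.0207, up to 0.0995 without parental replicate 1 or 2 or E1 replicate 2 or 3). Anln, with 220 to 384 CPM, was not called in any pair, and its fold changes reached 0.32 at most.

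Mki67, the proliferation antigen (Entrez 17345, chr7:135689784-135716450), was at 75.4, 71.2 and 119 CPM in the parental libraries, 178, 184 and 196 in E1, 236, 156 and 236 in E2, 111, 96.2 and 113 in A, and 39.3, 241 and 86.6 in M. Every E1 and E2 library exceeded every parental and A library, and M held the lowest and the highest value of all 15. The log2 fold change against parental was 1.07 in E1 (adjusted p = 0.196) and 1.24 in E2 (adjusted p = 0.122), and Mki67 was not called in any pair. Top2a (Entrez 21973) was at 207, 256 and 329 CPM in the parental libraries, 366, 511 and 537 in E1, 465, 474 and 564 in E2, 322, 293 and 334 in A, and 136, 456 and 210 in M. Its E1 and E2 libraries were above the parental and A libraries, and it was not called either (0.92 in E2 against parental, adjusted p = 0.0816). In the fit without the M libraries Mki67 was called in E1, in E2 (adjusted p = 2.53e-05), and lower in A than in E1 (-0.80, adjusted p = 0.00113) and E2 (-0.97, adjusted p = 0.000258).

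The 3 libraries of M differed from each other in the G2/M genes more than those of any other population. All 28 G2/M genes were highest in M replicate 2. The median range over the 3 M libraries was 1.88 on the log2 scale for the G2/M genes and 0.727 for the G1/S genes, against 0.577 for all genes. In the other populations the G2/M range was between 0.254 and 0.643. More than a 2-fold range was seen in 26 of the 43 genes in M (60.5%), beside 26.4% of all genes, and in 2.33% to 9.3% of the 43 in the other populations, beside 20.7% to 23.6% of all genes. Plk1, the kinase that drives entry into and exit from mitosis, was at 1.76, 16.8 and 3.40 CPM in the M libraries, a 9.52-fold range. Hmmr, a spindle protein, was at 4.27, 31.2 and 6.41 CPM, a 7.29-fold range, and Mki67 spanned 6.12-fold. E2f8 spanned 16.1 to 26.8 CPM, and Rrm1 141 to 181 CPM, in the same libraries. In the parental population the spread was smaller but pointed to 1 library too, since 22 of 28 G2/M genes were highest in parental replicate 3. In E1, 34 of the 43 genes were lowest in replicate 1. Replicate 1 was also the lowest for 22 of the 43 in the parental population, 19 in E2, 28 in M and 13 in A.

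**Figure D5:**
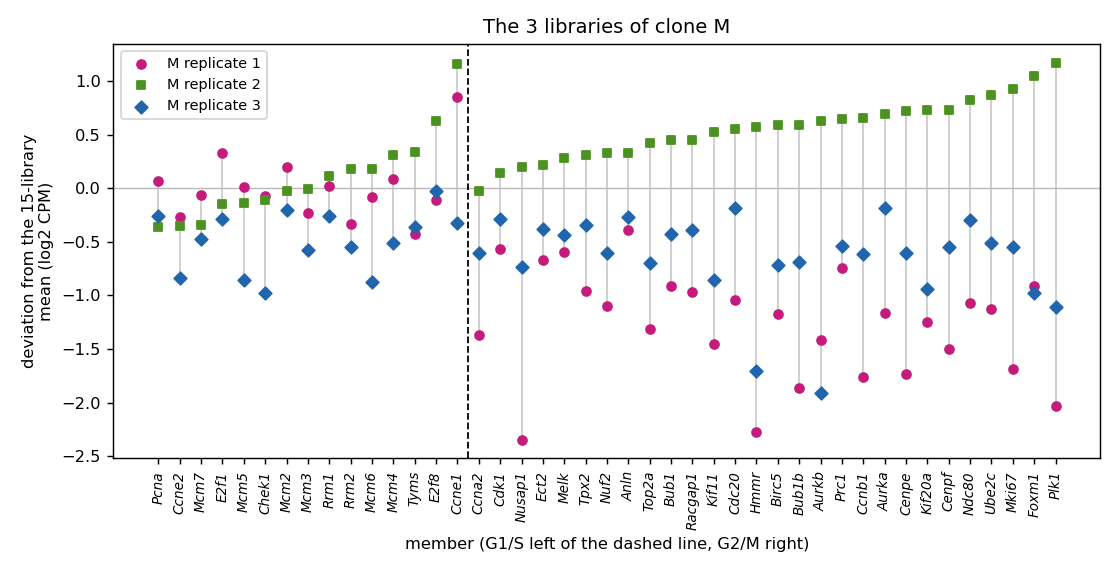
Deviation of each of the 43 genes in the 3 M libraries from its mean over all 15 libraries (log2 CPM, vertical axis), G1/S genes left and G2/M genes right of the dashed line. M replicate 2 is the highest of the 3 for all 28 G2/M genes, and the gap is largest for Plk1 at 9.52-fold.

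M replicate 2 also had the largest total of all libraries (36831801 counts), the lowest share in the 6 most abundant genes (61.4%, against 67.3% and 68.3% in the other M libraries) and the highest normalization factor (1.11). The part of these in its G2/M levels was not tested. The leukocyte and endothelial markers summed to at most 0.098 and 0.049 CPM in the M libraries. The comparisons of M are given with this library and without it. It was singled out after seeing that it was the highest M library for all 28 G2/M genes. The shift to lower G2/M levels without it follows from that choice. The calls and p-values of that fit are therefore no separate support for lower levels in M. With all 3 libraries, 3 genes were called lower in M than in E1 (Ccna2, Cdk1 and Rrm2, beside 1.46% of all genes lower and 2.43% higher). Against E2, 2 were lower (Ccna2 and Melk, beside 1.57% and 1.93%). Against A, 5 were lower (Mcm4, Mcm7, Pcna, E2f8 and Chek1, beside 8.55% and 9.2%). These are 6.98%, 4.65% and 11.6% of the 43, the last near the share of all genes. Without M replicate 2, the lone pair of M libraries gave 28 genes lower than in E1 (beside 3.28% of all 13095 genes tested there lower and 3.02% higher), 28 lower than in E2 (3.17% and 2.35%), 19 lower than in A (7.67% and 7.62%), and 10 lower and 1 higher than in the parental population (5.19% and 5.69%). The G2/M medians were then -1.34 against E1, -1.37 against E2, -0.70 against A and -0.54 against parental. Leaving out M replicate 3 instead gave 0 genes called by edgeR against A and against E1 and 1 against E2. Against E1 the count was also 0 without E1 replicate 2 or E1 replicate 3 and 1 without M replicate 1, and against A it was 1, 2 and 3 without A replicate 1, 2 and 3 in turn. Against parental it was 1 without parental replicate 3, and 5 without parental replicate 1 or M replicate 1. Hmmr showed the lowest values without M replicate 2, at -2.74 against E1 (adjusted p = 1.67e-07), -1.87 against A (adjusted p = 9.77e-06) and -1.99 against parental (adjusted p = 4.89e-06). The level of the G2/M genes in M relative to the other populations therefore rests on which of its libraries are used, while E2f8 was above parental either way (0.99 with all 3 libraries, 0.72 without M replicate 2, adjusted p = 0.0183).

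Other genes of the pathway were counted from lists outside the 43. The shares of all genes called higher than parental were 7.77%, 9.14%, 15.1% and 7.87% for E1, E2, A and M, and those called lower 7.35%, 8.8%, 14.9% and 6.28%. For A, 15% and 14.6% were higher and lower than in E1, and 11.4% and 11% than in E2. Of 31 mitotic motors, spindle and centrosome genes, 7 were higher in E1 and 9 in E2 than in the parental population, and 9 were lower in A than in E1 and 8 lower than in E2, with medians of 0.61, 0.59, -0.60 and -0.54. Haus6, a subunit of the augmin complex that branches spindle microtubules, averaged 29.2 CPM in the parental population, 61.8 in E1 and 60.1 in E2, with 31.1 in A and 40.3 in M. It was higher in E1 by 1.08 (adjusted p = 3.03e-05) and lower in A than in E1 by -0.99 (adjusted p = 2.05e-05). Tacc3, which stabilises spindle fibres, was higher than parental by 1.48 in E1 (adjusted p = 0.00117), 1.48 in E2 (adjusted p = 0.000959) and 0.88 in A (adjusted p = 0.0182). Cdca8, borealin of the passenger complex, was at 2.52 CPM in A against 9.16 in E1, a change of -1.84 (adjusted p = 0.000159), and was also below parental (-1.20, adjusted p = 0.00794). Of 33 further kinetochore and checkpoint genes, E1 had 6 higher than parental, E2 had 7, A had 5 and M had 2, with medians of 0.22, 0.50, 0.23 and 0.06, and E2, A and M had 1 lower each. The higher shares, 18.2%, 21.2%, 15.2% and 6.06%, were near or below the all-gene shares for A and M. Cenpi rose in all 4 clones, by 1.16, 1.45, 0.94 and 0.78 in the same order, and Spag5 was lower in A than in E1 (-0.69) and E2 (-0.75). Of 22 cohesin and condensin genes, 7 were higher and 1 lower in E1 and 6 higher and 1 lower in E2, with medians of 0.41 and 0.46. The lower gene was Wapl, which releases cohesin from chromosomes and was below parental in all 4 clones, with -0.54, -0.97, -0.85 and -0.42 for E1, E2, A and M, while Smc2, a condensin subunit, was higher by 0.93 in both E1 and E2.

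Turning to S phase, of 28 replication polymerase and fork genes E1 had 9 higher than parental, E2 had 11, A had 8 and M had 4, while E2 had 1 lower and A had 3. Their medians were 0.51, 0.45, 0.33 and 0.04. Pold1, the catalytic subunit of polymerase delta, averaged 9.25 CPM in the parental population, 25.2 in E1 and 29.4 in E2, with 18.7 in A and 16.4 in M. It rose by 1.44 in E1 (adjusted p = 6.15e-05), 1.66 in E2 (adjusted p = 8.99e-06), 1.01 in A (adjusted p = 0.000833) and 0.83 in M (adjusted p = 0.0109). Chaf1b, of the complex that puts histones on new DNA, had its highest mean in A (1.5 against parental, adjusted p = 1.55e-05). Of 26 S phase checkpoint and repair genes, E2 had 14 higher than parental, E1 had 7, A had 9 and M had 4, with medians of 0.59, 0.44, 0.38 and 0.10, and A had 2 lower. Mms22l, which protects forks, rose by 1.23, 1.52, 1.25 and 0.74 in E1, E2, A and M. Of 21 genes of origin licensing and firing, 5 were lower and 3 higher in A than in the parental population (23.8% and 14.3%, the latter near the 15.1% of all genes), with a median of 0.08. Topbp1 was higher in A than in each other population, by 0.94 against parental (adjusted p = 5.32e-06), and Orc2 was lower in A than in each, by -0.95 against parental (adjusted p = 2.17e-05). Cdc7, the kinase that fires origins, was at 7.08 CPM in the parental population, 16.4 in E1, 18.4 in E2 and 7.5 in A, and was lower in A than in E2 by -1.29 (adjusted p = 0.000445). Of 14 nucleotide synthesis genes, 5 were lower in A than in the parental population and 2 higher, with a median of -0.36. Cad, which starts pyrimidine synthesis, was at 36.7 CPM in A against 113 in E1 (-1.62, adjusted p = 4.1e-05), and Ctps was likewise lower in A (-1.33 against E1, adjusted p = 6.49e-08). A thus had low Ctps and Cad with Rrm2 above parental.

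Of 17 other cyclins, cyclin-dependent kinases and phosphatases, E1 had 1 higher than parental, E2 had 3, A had 3 and M had 2, with medians of 0.19, 0.44, 0.28 and 0.07. For E1 and A these are 5.88% and 17.6%, near the all-gene shares of 7.77% and 15.1%. Ccnd1, the cyclin D that opens G1, averaged 402 CPM in the parental population, 456 in E1 and 529 in E2, with 777 in A and 826 in M. It was higher than parental in M by 1.04 (adjusted p = 7.69e-06), in A by 0.95 (adjusted p = 7.12e-06) and in E2 by 0.40 (adjusted p = 0.0441), and higher in A than in E1 by 0.77 (adjusted p = 0.000106). Ccnd2 was highest in M, at 338 CPM against 175 to 231 in the others. Wee1, which holds Cdk1 inactive, was higher in A than in parental (0.75) and E1 (0.56). Of 11 tested inhibitors and pocket proteins, 5 were higher and 2 lower in A than in the parental population, with a median of 0.62. Rbl2, a pocket protein of resting cells, was higher in A than in each other population, by 0.91 against parental (adjusted p = 0.000592), while Rbl1 rose in E1 (0.92), E2 (0.99) and A (0.69). Gadd45a was lower in A than in each, by -1.47 against parental (adjusted p = 1.04e-05). Of 15 E2F, DREAM and B-Myb factors, 3 were higher and 5 lower in A than in E1, with a median of -0.16. Tfdp2 was higher in A than in each other population, by 1.28 against E1 (adjusted p = 3.69e-06), and E2f4, an E2F that binds in resting cells, was lower, by -1.03 against parental (adjusted p = 1.05e-05). Of 14 subunits and regulators of the anaphase-promoting complex, 2 were higher and 2 lower in A than in E1, with a median of -0.15. This is 14.3% in each direction, near the 15% and 14.6% of all genes. Among them Fbxo5, an inhibitor of the complex, was lower in A than in E1 (-0.95) and E2 (-1.07).

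The 18 tested genes of the histone list had medians of 0.95 in E1 and 0.78 in E2 against parental and -1.03 in A against E1. In those directions 1, 1 and 5 genes were called, or 5.56%, 5.56% and 27.8%, beside 7.77%, 9.14% and 14.6% of all genes. The shares in E1 and E2 were thus below those of all genes. H1f0, which is in the list although it is not tied to replication, was among the lower genes in A, at 75.3 CPM against 130 in E1. Many histone messages end without a long poly(A) tail and have near-identical copies, so their counts are uncertain. Mitochondrially encoded genes moved as well: 10 of 13 were higher in A than in E1 (76.9%, beside 15% of all genes). In A, 8 of 13 were higher than in E2 (61.5%, beside 11.4%), and in M 8 of 13 were lower than in A (61.5%, beside 8.55%). The fibroblast marker sum was 21.1 to 33.8 CPM in A and 3.15 to 12.1 CPM in the other populations, and nearly all of it in A was Pdgfra, at 26.4 CPM. Epithelial marker sums were 350 to 397 CPM in the parental libraries, 559 to 729 in E1 and E2, 717 to 863 in A and 552 to 768 in M. The part of these differences in the levels of the cell cycle genes was not tested.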

How the data were processed

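RNA sequencing of 15 libraries of mouse 4T1 cells (directional preparation, per the labels' protocols) was deposited as read counts per Entrez gene. The submitters' processing notes name HISAT2, featureCounts, DESeq2 and the builds GRCm38 and mm10. Versions and the strand setting of the counting are not given in the sources used here. Tables of the whole series were not used. Library totals ran from 20143111 to 36831801 counts.

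Counts were tested with edgeR's quasi-likelihood test (edgeR 4.0.16, R 4.3.3; filterByExpr with a minimum count of 10 and total of 15, TMM scaling, robust fit, prior count 2) over the 5 populations, which share 1 spread per gene (biological coefficient of variation 0.255). P-values were adjusted by Benjamini-Hochberg over all 12712 genes within each of 10 pairs and within the test of any difference, and a call is an adjusted p under 0.05. The step was tested on simulated data for E1 against parental with 12712 genes: it recovered 17.9% of genes changed 1.5-fold, 67.2% of those changed 2-fold and 93.9% of those changed 4-fold, with 8 false among 127 calls. The changed genes were drawn only from genes above a mean count threshold, so these shares do not describe genes with low counts. Symbols came from the RefSeq gene table, with GENCODE for mitochondrial genes. Coordinates are those of GRCm38.

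The members and lists were chosen with earlier results of these data known. Every member called in a comparison is named. Values in each library are given for the member with the smallest p for any difference in each role and for Mki67, Ccne1, Ccne2, E2f1, Foxm1 and Cdc20, and up to 3 called genes with the smallest p are named from each other list, with 1 result not reported here. Alternatives were DESeq2 1.42.0, RLE scaling, no filter, fits to the 2 populations compared, removal of the 6 most abundant genes, the share of the top gene as a covariate, a replicate block and leaving out each library. Replicate numbers share no stated batch or day, so they were not used to pair libraries. No replicate pair agreed within sampling noise.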

Additional observations from a re-analysis of the deposited data

How the results depend on the processing

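Of 64 calls of a gene in a pair of populations, 28 held under every alternative run. Of 883 recomputed values of called genes, 745 stayed called, 138 were no longer called and 0 reversed. Of 168 recomputed counts of the 43 genes, 58 moved by more than 1.5 times. Of 157 recomputed counts of all genes tested, 27 moved by as much. For most of these fits the share of all genes called is not given here. Whether a rise was particular to the 43 was therefore not tested. The moved counts of the 43 include the following. Without the filter on low counts the calls were 27 in E1 against parental, 26 in E2, 8 in M, 23 in A against E1, 22 in M against E1, 23 in A against E2, 19 in M against E2, 8 in M against A, and 37 for any difference. With only the 2 populations compared in the fit they were 24 in E1 and 1 in M against parental, 29 in A and 1 in M against E1, and 25 in A against E2. Without the 3 M libraries they were 26 in E1 and 25 in E2 against parental, and 22 in A against each of E1 and E2. With the share of the top gene as a covariate they were 5 in M against parental, 19 in A and 9 in M against E1, and 20 in A and 8 in M against E2. DESeq2 called 5 in M against E1 and 5 against E2. Without the 8 genes that share exon bases with a protein-coding gene on the opposite strand, 1 was left in M against E2, by construction of the smaller list. The fit without the M libraries and that without those 8 genes were chosen after seeing the data. Leaving out 1 library at a time gave 5 to 10 calls in E1, 8 to 10 in E2, 6 to 9 in A and 1 to 11 in M against parental, 5 to 7 in A against E2, 0 to 28 in M against E1, 1 to 28 in M against E2, 0 to 19 in M against A, and 12 to 37 for any difference. These fits have fewer samples; the cause of the other shifts was not tested.

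The replicate block gave 5 calls in M against parental, 10 in M against E1 and 8 in M against E2, and kept the other counts within 1.5 times. Of 30 pairs of same-numbered libraries from different populations, 4 had deviations correlated over 0.1 (range -0.058 to 0.213). Yet 13 of 15 libraries correlated best with their own number, a hint from the data of a shared replicate effect. Replicate 1 also had the largest share in the most abundant identifier in each population (49.3%, 44.1%, 49.1%, 39.3% and 44.7% in parental, E1, E2, A and M). The numbers were left out of the main fit because the labels give them no shared batch or day. Whether they mark one was not tested. Ccne1 had the fewest counts of the 43 genes, 8 to 112 in a library.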
